A study of Mus musculus with 43 samples.

Results

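A set of 10 genes was followed in mouse brain RNA sequencing: Arc, Npas4, Bdnf, Nptx2, Homer1, Inhba, Vgf, Scg2, Pcsk1 and Nrn1. They were taken by Ensembl identifier from the 55804 gene rows of each of 2 tables of TPM (an abundance divided by transcript length and scaled to a fixed total in each library), and all 10 were found in both and passed the filter on low values (a mean of at least 1 TPM). These genes were selected on measured values of the AppNLGF cohort, in which Arc and Npas4 stood apart, so their differences in that cohort are given as a description, and where the number past a p threshold is given there, it is a count from which nothing is read. Arc and Npas4 are taken as the fast genes and Bdnf, Nptx2 and Vgf as the late genes, and the other 5 were not assigned to either class.

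The first cohort held mice 6 months old: 13 libraries of AppNLGF mice given the NRF2 inducer CDDO-2P-Im (called 2P-Im here), 11 of AppNLGF mice given vehicle and 4 of wild type mice given vehicle. AppNLGF mice carry a humanised amyloid sequence with familial mutations in their own App gene. The second cohort held mice 11 months old, with 5 libraries each of APP/TAU mice given 2P-Im, APP/TAU mice given vehicle and wild type mice given vehicle. APP/TAU mice (APPV717I::TAUP301L) carry human transgenes with familial mutations, and the promoters that drive them are not stated in the labels. Doses of 2P-Im were 30 µmol/kg, given orally to model mice 3 times each week, over 4 weeks in AppNLGF and over 2 weeks in APP/TAU mice. The vehicle was DMSO and Cremophor EL in PBS, and for wild type mice the labels name it without a schedule. Whether each library came from its own animal is not stated, and the p-values therefore reflect variation among libraries that may be technical. No stimulus, brain region or time of day is stated, so the levels are those of unstimulated tissue as far as the labels say.

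The genes belong to the transcriptional programme that neurons run when they fire. Calcium entering through NMDA receptors and L-type channels activates kinases and the factor CREB, which switches on immediate early genes without new protein synthesis. Arc, which links the endocytic machinery to AMPA receptors and lowers their number at synapses, and Npas4, a neuronal transcription factor that shapes inhibitory synapses, belong to that first wave. The other genes of the set encode effectors that act on other cells or at the synapse. Bdnf encodes a neurotrophin that binds TrkB, Nptx2 a secreted pentraxin that clusters AMPA receptors and Inhba a subunit of activin. Vgf and Scg2 encode granins that give rise to neuropeptides, and Pcsk1 a convertase that cleaves prohormones. Homer1 encodes a postsynaptic scaffold and Nrn1 a membrane-anchored protein that promotes neurite growth.

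In the GRCm38 build with GENCODE M21, Arc lies at chr15:74669083-74672570 on the minus strand and Npas4 at chr19:4984355-4990316 on the minus strand. Bdnf lies at chr2:109674700-109727007, Nptx2 at chr5:144545902-144557478 and Vgf at chr5:137026392-137033351, all on the plus strand. On chromosome 13 lie Homer1 (93299635 to 93405129), Inhba (16011851 to 16031621) and Pcsk1 (75089826 to 75134861) on the plus strand and Nrn1 (36725361 to 36735131) on the minus strand, and Scg2 lies at chr1:79434669-79440120 on the minus strand. All 10 are annotated as protein coding. A gene row gives no isoform detail, so the short Homer1 isoform made after activity cannot be told from the long ones. In the AppNLGF table some isoforms have rows of their own, and its gene rows held 88.5 to 91.4% of the fixed total. Whether a gene row includes the isoforms listed apart was not tested, so gene levels and folds may miss part of a gene.

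Promoter sequence from RefSeq (GRCm38.p6) was at hand for 6 members in 13 windows running from 250 bases before to 50 after a start, and stretches of 190 bases up to the start are printed for 5 of them. They are shown because they hold the cyclic AMP response element (CRE, TGACGTCA) or its shorter core (TGACG, or CGTCA on the other strand). CREB is known to bind both. Any link between these letters and how the genes moved between libraries was not tested. Capitals mark the CRE or its core, and each stretch reads 5′ to 3′ along its gene. The Npas4 stretch lies at chr19:4989972-4990161 on the minus strand, that of the third Bdnf window at chr2:109692246-109692435 on the plus strand and that of the first Homer1 window at chr13:93303567-93303756 on the plus strand. The Scg2 stretch lies at chr1:79440027-79440216 on the minus strand and the Pcsk1 stretch at chr13:75089667-75089856 on the plus strand.
Npas4: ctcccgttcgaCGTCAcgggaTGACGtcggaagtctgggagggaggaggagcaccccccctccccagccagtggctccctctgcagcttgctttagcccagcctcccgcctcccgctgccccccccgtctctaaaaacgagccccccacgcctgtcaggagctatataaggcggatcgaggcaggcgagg
Bdnf window 3: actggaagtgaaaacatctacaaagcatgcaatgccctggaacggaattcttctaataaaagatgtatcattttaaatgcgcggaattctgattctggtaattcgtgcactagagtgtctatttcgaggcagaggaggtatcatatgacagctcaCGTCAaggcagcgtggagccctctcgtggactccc
Homer1 window 1: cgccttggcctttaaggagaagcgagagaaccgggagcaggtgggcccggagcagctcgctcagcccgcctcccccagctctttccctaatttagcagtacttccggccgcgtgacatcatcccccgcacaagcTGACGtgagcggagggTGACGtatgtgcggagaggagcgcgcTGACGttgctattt
Scg2: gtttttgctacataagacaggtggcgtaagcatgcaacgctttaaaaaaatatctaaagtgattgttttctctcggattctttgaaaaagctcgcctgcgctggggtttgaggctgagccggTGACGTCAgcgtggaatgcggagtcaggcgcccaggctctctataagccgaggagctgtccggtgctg
Pcsk1: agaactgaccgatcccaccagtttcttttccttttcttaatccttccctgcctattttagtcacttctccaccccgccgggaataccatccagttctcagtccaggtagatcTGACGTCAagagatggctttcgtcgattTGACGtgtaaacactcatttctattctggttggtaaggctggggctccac

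A whole CRE was found in the windows of Scg2, 68 to 61 bases before the start, and Pcsk1, 78 to 71 bases before it. Of 32851 mouse promoter windows of this length, 1.79% hold one. The shorter core, which also counts inside a whole CRE, was found in those windows, in the first of the Homer1 windows (3 matches), in the third of the 7 Bdnf windows and in that of Npas4 (2 matches), against 20.81% of all windows. The AP-1 letters TGANTCA were found in the second Bdnf window (7.808% of all windows), and the antioxidant response element letters TGACNNNGC, the motif of NRF2, in the Scg2 window and the first Homer1 window (12.39% of all windows), in Homer1 overlapping a CRE core. The CArG box was found in none of the 13, against 1.629% of all windows, and the Inhba window held none of the motifs searched. A match of letters describes the sequence and is not a binding site.

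Neuronal markers were present in each of the 43 libraries, with the summed level of 6 genes between 1550 and 2374 TPM. The most abundant RNA, which has no symbol in the tables used, took 15.5 to 40.0% of a library, and it took 29.5 ± 1.54% in APP/TAU 2P-Im, 22.0 ± 6.59% in APP/TAU vehicle and 30.1 ± 3.72% in the wild type libraries of that cohort (SD, n = 5 each). TPM share a fixed total. The median gene of that cohort moved by -0.19 (log2) in 2P-Im against vehicle and by +0.18 in vehicle against wild type. The part of the most abundant RNA in these shifts was not tested. Each comparison was therefore repeated with TPM rescaled by the median ratio to the geometric mean of all tested genes (median-ratio scaling). The cohorts held unlike tissue, with 8 striatal markers summing to 481 ± 49.5 TPM and 7 cerebellar markers to 23.0 ± 6.77 TPM in wild type libraries at 6 months (SD, n = 4), and to 89.1 ± 16.1 and 524 ± 91.1 TPM in wild type libraries at 11 months (n = 5). Xist, transcribed from the inactive X chromosome of females, was at 10 TPM or more in 7 of 13 AppNLGF 2P-Im, 5 of 11 AppNLGF vehicle and 0 of 4 wild type libraries, and in no APP/TAU-cohort library. Folds are differences in log2(TPM + 1), which understate the change of low genes, with the standard error (SE) of a limma fit over all genes of a table.

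In the wild type brain at 6 months the 10 genes spanned a wide range of TPM. Homer1 averaged 123 ± 26.6, Vgf 102 ± 16.8, Nrn1 88.1 ± 11.4, Arc 84.9 ± 25.6 and Scg2 82.5 ± 5.53 TPM (SD, n = 4), and the ranges of neighbours in this order overlapped. Nptx2 followed at 20.1 ± 4.45 and Pcsk1 at 12.4 ± 2.60 TPM. Bdnf at 7.40 ± 1.25, Npas4 at 5.82 ± 1.47 and Inhba at 4.26 ± 1.29 TPM were lowest, again with overlapping ranges between neighbours. Arc, Npas4 and Inhba varied most between the 4 libraries, with coefficients of variation of 30.1, 25.2 and 30.4%, and Scg2 least, with 6.71%. In the wild type libraries of the 11-month cohort Homer1, at 67.0 ± 9.00 TPM, Nptx2, at 8.87 ± 2.45 TPM, and Inhba, at 1.81 ± 0.437 TPM, were listed lower than at 6 months, while Arc, at 67.2 ± 14.3, and Bdnf, at 7.03 ± 1.18 TPM, were listed near their 6-month levels (n = 5). The tables were normalized separately and the tissue differed, so these levels stand side by side without a test.

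Arc and Npas4 were lower in AppNLGF vehicle than in wild type libraries, and the other 8 genes showed no such gap. Arc ran from 21.4 to 74.1 TPM with a median of 31.7 in the 11 vehicle libraries, against 73.4, 93.8, 116 and 56.7 TPM in the wild type libraries. Vehicle replicate 6 at 74.1 TPM, reached into the wild type range, and the next highest was at 44.5 TPM. The ratio of mean TPM was 0.425 and the fold -1.24 ± 0.24. Npas4 ran from 1.25 to 2.72 TPM with a median of 1.95 in vehicle libraries, against 7.26, 6.90, 4.46 and 4.65 TPM in wild type libraries. Every vehicle library lay below every wild type library, the ratio of means was 0.350 and the fold -1.16 ± 0.20.

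The late genes of AppNLGF vehicle libraries overlapped those of wild type libraries. Bdnf ran from 4.23 to 9.85 TPM (median 7.12) in vehicle libraries, against 5.95, 7.14, 8.99 and 7.53 TPM in wild type libraries, a fold of -0.03 ± 0.21. Nptx2 ran from 13.7 to 22.0 TPM (median 18.5) in vehicle libraries, against 16.5, 16.6, 25.8 and 21.4 TPM in wild type libraries, a fold of -0.11 ± 0.16. Vgf ran from 91.8 to 118 TPM (median 110) in vehicle libraries, against 87.7, 90.4, 124 and 105 TPM in wild type libraries, a fold of +0.07 ± 0.11. In each of the 3 genes the wild type range contained the vehicle median. The folds of Homer1 (-0.07), Scg2 (-0.16), Pcsk1 (-0.05), Nrn1 (+0.04) and Inhba (+0.23 ± 0.16) completed the set, with Inhba the highest of the 10.

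Of the 10 genes, 2 passed an adjusted p below 0.05 in this comparison, both lower, where 0.28% of the 16776 genes tested passed, and 1, Npas4, did not overlap, where 0.662% of genes did not. With median-ratio scaling 2 again passed, against 0.691% of genes, with folds of -1.21 ± 0.22 for Arc and -1.13 ± 0.18 for Npas4. Because the genes were chosen with this comparison in view, nothing is read from these counts. Among libraries with Xist below 10 TPM, which include every wild type library, the fold was -1.34 ± 0.22 for Arc and -1.14 ± 0.19 for Npas4. The count of 2 fell to 1 when wild type replicate 2 or wild type replicate 3 was left out, since Arc then missed the threshold, with folds of -1.17 and -1.07.

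**Figure D1:**
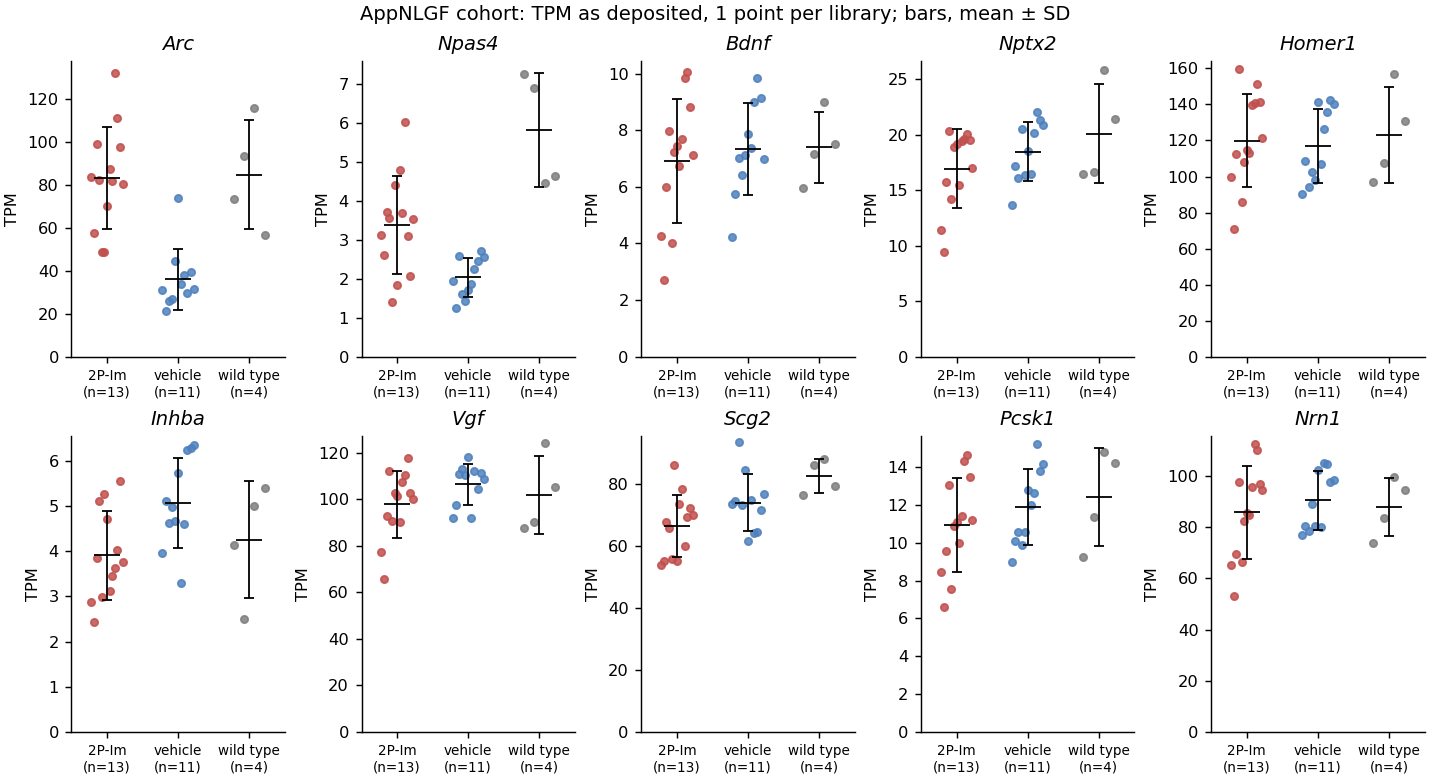
TPM as deposited of the 10 genes in the AppNLGF cohort, 1 panel per gene with TPM on the vertical axis, 1 point per library, and bars for mean ± SD of 13 2P-Im, 11 vehicle and 4 wild type libraries. Arc averaged 83.2 TPM in 2P-Im, 36.1 TPM in vehicle and 84.9 TPM in wild type libraries. Npas4 averaged 3.38 TPM in 2P-Im, 2.04 TPM in vehicle and 5.82 TPM in wild type libraries. Only Npas4 in vehicle against wild type libraries is free of overlap, and in every other comparison of 2 groups the libraries of each gene overlap.

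Arc was higher in AppNLGF libraries given 2P-Im than in those given vehicle and Npas4 was higher to a smaller degree, with no such difference in the late genes. Arc ran from 48.7 to 132 TPM with a median of 82.4 in the 13 2P-Im libraries, against 21.4 to 74.1 with a median of 31.7 TPM in the 11 vehicle libraries. Of the 2P-Im libraries, 9 lay above every vehicle library, and all 13 lay above every vehicle library other than replicate 6. The ratio of mean TPM was 2.31 and the fold +1.20 ± 0.17, or +1.24 ± 0.16 with median-ratio scaling. Npas4 ran from 1.41 to 6.02 TPM with a median of 3.55 in 2P-Im libraries, against 1.25 to 2.72 with a median of 1.95 TPM in vehicle libraries. Again 9 of 13 lay above every vehicle library, while replicates 5, 7, 12 and 2 of the 2P-Im group lay at 1.41, 1.84, 2.06 and 2.61 TPM, inside the vehicle range. The ratio of means was 1.66 and the fold +0.49 ± 0.14, or +0.52 ± 0.12 with median-ratio scaling.

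Each late gene was slightly lower in mean in 2P-Im than in vehicle libraries of the AppNLGF cohort. Bdnf ran from 2.71 to 10.1 TPM (median 7.22) in 2P-Im libraries, against 4.23 to 9.85 TPM (median 7.12) in vehicle libraries, a fold of -0.11 ± 0.15. Nptx2 ran from 9.41 to 20.3 TPM (median 18.9) in 2P-Im libraries, against 13.7 to 22.0 TPM (median 18.5) in vehicle libraries, a fold of -0.13 ± 0.11. Vgf ran from 65.8 to 118 TPM (median 102) in 2P-Im libraries, against 91.8 to 118 TPM (median 110) in vehicle libraries, a fold of -0.13 ± 0.08. The ranges overlapped in each, and within the 2P-Im group replicates 1, 2 and 5 held the lowest 3 values of both Bdnf and Nptx2. In these replicates the most abundant RNA took 40.0, 39.3 and 39.7% of the fixed total, against a group mean of 33.4%. With median-ratio scaling the folds of Bdnf, Nptx2 and Vgf were -0.08, -0.09 and -0.09. Inhba, the activin subunit, averaged 3.91 ± 0.988 TPM in 2P-Im and 5.08 ± 0.997 TPM in vehicle libraries, and its fold of -0.32 ± 0.11 was the lowest of the 10. The folds of Homer1 (+0.02), Nrn1 (-0.10), Pcsk1 (-0.13) and Scg2 (-0.16 ± 0.07) lay between.

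In this comparison 1 of the 10 genes, Arc, passed, where 0.0536% of genes passed, and none was free of overlap, against 0.00596% of genes, a single gene, the AP-1 subunit gene Junb. With median-ratio scaling 1 passed, again Arc, against 0.286% of genes. The genes were chosen with this comparison in view, and nothing is read from the counts. Among libraries with Xist below 10 TPM the Arc fold was +1.47 ± 0.20 and the Npas4 fold +0.65 ± 0.17, and among those with 10 TPM or more they were +0.94 ± 0.26 and +0.36 ± 0.21. Arc kept its direction in both sets, but the count of 1 fell to 0 among libraries with Xist of at least 10 TPM. The fold of Arc ran from +1.14 to +1.31 when each library was left out in turn.

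Set against wild type, AppNLGF libraries given 2P-Im had Arc at the wild type level and Npas4 below it. Arc averaged 83.2 ± 23.9 TPM in 2P-Im (n = 13) and 84.9 ± 25.6 TPM in wild type libraries (SD, n = 4), a fold of -0.04 ± 0.24 that turned to +0.04 ± 0.22 with median-ratio scaling. Npas4 averaged 3.38 ± 1.26 TPM in 2P-Im and 5.82 ± 1.47 TPM in wild type libraries, a fold of -0.67 ± 0.19, and 11 of 13 2P-Im libraries lay below every wild type library. Scg2 also lay below every wild type library in 11 of 13, at 66.4 ± 10.0 TPM in 2P-Im and 82.5 ± 5.53 TPM in wild type libraries, with a fold of -0.32 ± 0.10. The other 7 folds ran from -0.24 to -0.05. None of the 10 passed, where 0.262% of genes passed, and none was free of overlap, where 0.256% of genes were. An unadjusted p below 0.05 by limma was reached by 2 of the 10. The share of all genes at that threshold is not given here, so nothing is read from the 2. The 3 AppNLGF comparisons share libraries, so their folds are not independent of each other.

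**Figure D2:**
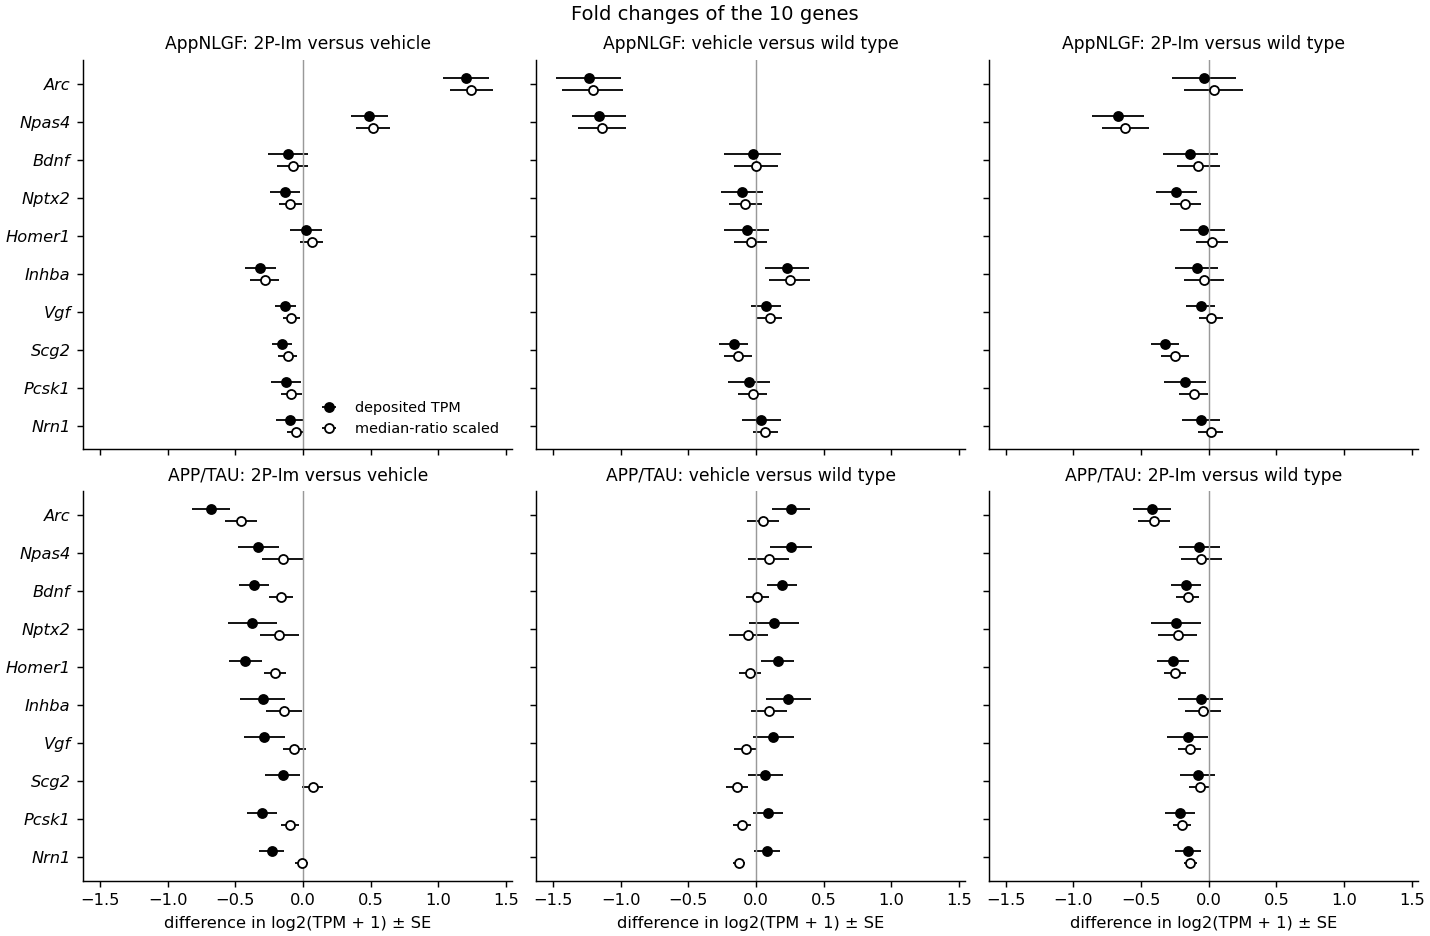
Differences in log2(TPM + 1) with SE of the 10 genes, 1 row per gene, in the 3 comparisons of the AppNLGF cohort (top) and the APP/TAU cohort (bottom), from deposited TPM (filled) and median-ratio scaled TPM (open). Arc and Npas4 stand apart in AppNLGF vehicle against wild type, at -1.24 and -1.16, and Arc lies at +1.20 in AppNLGF 2P-Im against vehicle but at -0.68 in APP/TAU 2P-Im against vehicle.

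The distance between fast and late genes was measured in each library as the mean log2(TPM + 1) of Arc and Npas4 minus that of Bdnf, Nptx2 and Vgf, a value that hardly depends on the scaling of a library. In the AppNLGF cohort it was -0.35 ± 0.36 in 2P-Im (n = 13), -1.32 ± 0.23 in vehicle (n = 11) and -0.14 ± 0.40 in wild type libraries (SD, n = 4). All 13 2P-Im libraries lay above every vehicle library, with a difference in means of +0.97, and all 11 vehicle libraries lay below every wild type library, with a difference of -1.18. The 2P-Im libraries spread from -0.86 to 0.12 and overlapped the wild type libraries, at 0.17, 0.21, -0.35 and -0.60. The choice of fast genes used these samples, so the values are a description. In the APP/TAU cohort, which was not used for that choice, the same measure was 0.047 ± 0.24 in 2P-Im, 0.21 ± 0.16 in vehicle and 0.10 ± 0.16 in wild type libraries (SD, n = 5 each), differences that were smaller than the spread within the groups or close to it. Of the 5 2P-Im libraries there, 3 lay below every vehicle library and 1 above every vehicle library.

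**Figure D3:**
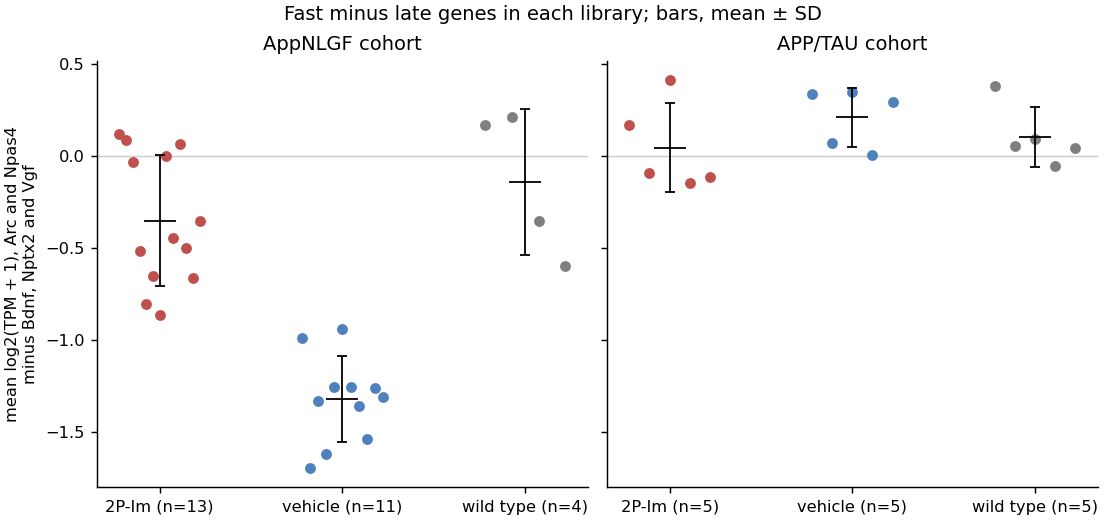
Mean log2(TPM + 1) of Arc and Npas4 minus that of Bdnf, Nptx2 and Vgf on the vertical axis, 1 point per library, with bars for mean ± SD. In the AppNLGF cohort (left) the 11 vehicle libraries, between -1.69 and -0.94, lie below the 13 2P-Im and the 4 wild type libraries, and in the APP/TAU cohort (right) the 3 groups overlap.

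In APP/TAU mice, each library given 2P-Im had less Arc than each library given vehicle, opposite in sign to AppNLGF mice, in a difference that did not pass over all genes. Arc was at 46.9, 44.4, 52.8, 51.2 and 49.9 TPM in APP/TAU 2P-Im libraries, against 81.8, 99.8, 82.7, 74.4 and 61.7 TPM in APP/TAU vehicle libraries and 85.1, 47.9, 58.8, 70.4 and 73.9 TPM in wild type libraries. Each 2P-Im library lay below each vehicle library, and the 2P-Im libraries were also close together, with a coefficient of variation of 6.93% against 17.3% in vehicle libraries. The fold of 2P-Im against vehicle was -0.68 ± 0.14 and did not pass, with an adjusted p of 0.167 by limma. With median-ratio scaling, which removes the shift of the median gene, it was -0.46 ± 0.12 with an adjusted p of 0.365 by limma, and the groups still did not overlap. The difference between the cohorts was not tested, since the AppNLGF value took part in choosing the gene, and the cohorts also differ in model, age, weeks of treatment and tissue.

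Npas4 in the APP/TAU cohort was at 4.43, 4.64, 4.44, 3.40 and 3.30 TPM in 2P-Im libraries, against 5.75, 3.91, 6.12, 5.84 and 5.12 TPM in vehicle libraries. The groups overlapped through vehicle replicate 2 at 3.91 TPM, and the fold of -0.33 ± 0.15 had an adjusted p of 0.182 by limma. With median-ratio scaling it was -0.15 ± 0.15.

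The late genes also had lower means after 2P-Im in APP/TAU mice, with folds further below 0 than the -0.19 of the median gene, and none passed. Bdnf was at 5.39, 5.45, 6.01, 6.93 and 6.77 TPM in 2P-Im libraries, against 7.96, 9.34, 7.85, 8.35 and 7.12 TPM in vehicle libraries, without overlap. Its fold was -0.36 ± 0.11 (adjusted p 0.167 by limma), and -0.16 ± 0.09 with overlap after median-ratio scaling. Nptx2 was at 6.43, 9.21, 4.86, 8.21 and 7.77 TPM in 2P-Im libraries, against 8.83, 9.99, 10.9, 12.2 and 6.74 TPM in vehicle libraries, with a fold of -0.37 ± 0.18. Vgf was at 60.8, 73.9, 50.8, 63.7 and 59.3 TPM in 2P-Im libraries, against 73.5, 82.5, 65.6, 92.4 and 64.0 TPM in vehicle libraries, with a fold of -0.29 ± 0.15. Both overlapped, and their median-ratio folds were -0.17 and -0.06. Pcsk1, at 9.55 ± 0.751 TPM in 2P-Im and 12.1 ± 1.78 TPM in vehicle libraries, did not overlap, with a fold of -0.30 ± 0.11, and vehicle replicate 2 was far above the rest of its group at 15.1 TPM. Homer1 averaged 55.4 ± 4.62 TPM in 2P-Im and 75.5 ± 13.1 TPM in vehicle libraries, with a fold of -0.43 ± 0.12. The folds of Nrn1 (-0.23), Inhba (-0.30) and Scg2 (-0.15) were smaller, and the Scg2 fold turned to +0.07 with median-ratio scaling.

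None of the 10 genes passed in APP/TAU 2P-Im against vehicle, where 0.0% of the 17592 genes tested passed, although 6 of the 10 and 4719 of all genes had an unadjusted p below 0.05 by limma. Groups did not overlap in 3 of the 10, Arc, Bdnf and Pcsk1, where 3.68% of genes did not overlap. With median-ratio scaling 0 of the 10 passed, where 0.0114% of genes passed, and 1, Arc, did not overlap, where 1.74% did not. In the members the median fold was -0.32 as deposited and -0.14 with median-ratio scaling, and over all genes it was -0.19 and +0.002.

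APP/TAU vehicle and wild type libraries overlapped in all 10 genes, where groups did not overlap in 2.04% of genes, and none passed, where 0.0227% passed. An unadjusted p below 0.05 by limma was reached by 0 of the 10, and nothing is read from this without the share of all genes. Arc averaged 80.1 ± 13.9 TPM in vehicle and 67.2 ± 14.3 TPM in wild type libraries, with a fold of +0.26 ± 0.14 (adjusted p 0.252 by limma), and Npas4 5.35 ± 0.881 TPM in vehicle and 4.37 ± 1.12 TPM in wild type libraries, with a fold of +0.26 ± 0.15 (adjusted p 0.278 by limma). With median-ratio scaling the folds were +0.05 ± 0.12 for Arc and +0.09 ± 0.15 for Npas4, and that of Arc ran from -0.01 to +0.14 when each library was left out in turn. The 10 folds ran from +0.07 to +0.26 around a median gene at +0.18, and with median-ratio scaling from -0.14 to +0.10, with 6 of 10 below 0.

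APP/TAU 2P-Im libraries had Arc at -0.42 ± 0.14 relative to wild type, with 2 of 5 below every wild type library and an adjusted p of 1 by limma, and at -0.41 ± 0.12 with median-ratio scaling. None of the 10 passed, where 0.0227% of genes passed, and none was free of overlap, where 0.426% of genes were. An unadjusted p below 0.05 by limma was reached by 2 of the 10, and nothing is read from this without the share of all genes. With median-ratio scaling Homer1 (-0.25 ± 0.08), Pcsk1 (-0.20 ± 0.07) and Nrn1 (-0.14 ± 0.05) did not overlap, which is 3 of 10 where 1.69% of genes did not, and their adjusted p by limma ran from 0.498 to 0.520. As deposited, the folds other than that of Arc ran from -0.26 for Homer1 to -0.06 for Inhba.

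**Figure D4:**
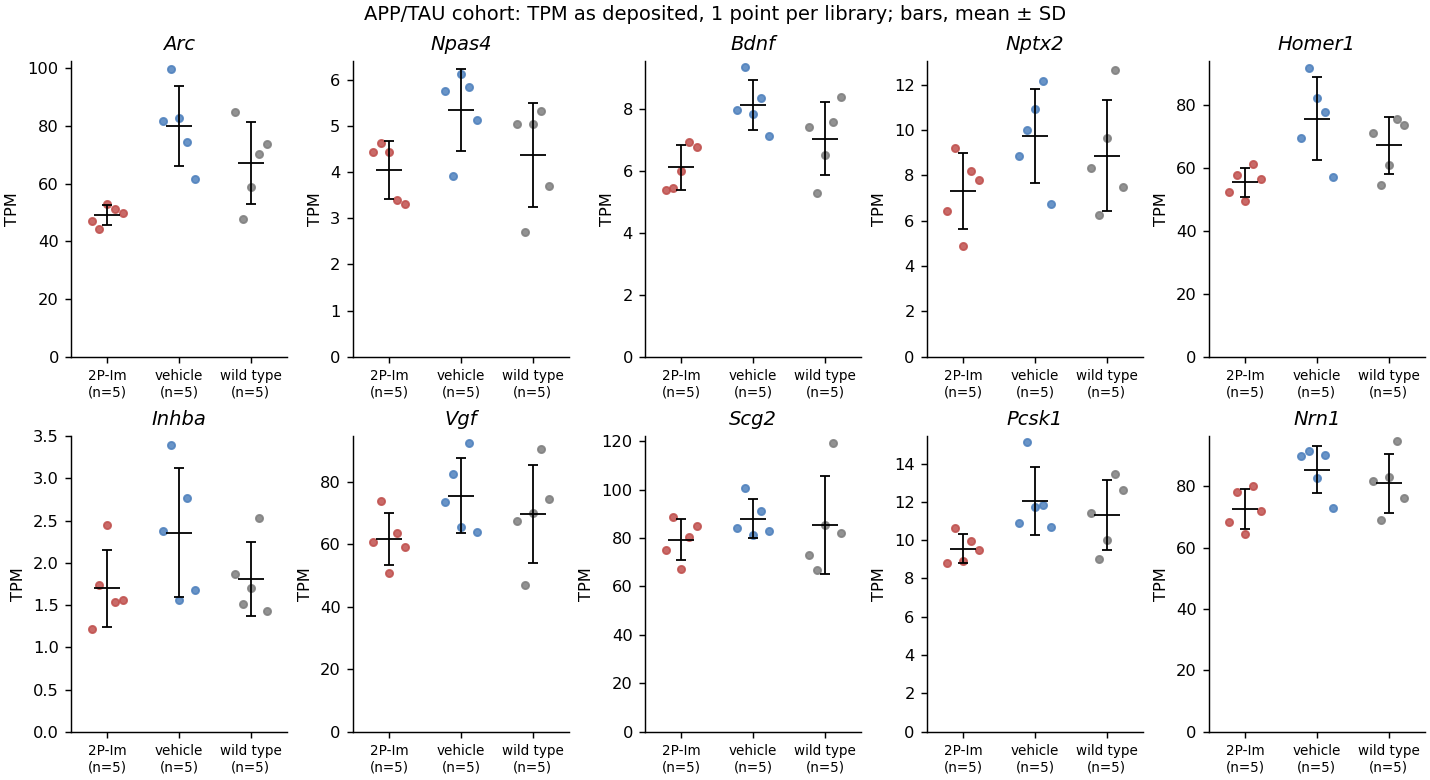
TPM as deposited of the 10 genes in the APP/TAU cohort, 1 panel per gene with TPM on the vertical axis, 1 point per library, and bars for mean ± SD of 5 2P-Im, 5 vehicle and 5 wild type libraries. Arc lies between 44.4 and 52.8 TPM in 2P-Im libraries, below the 5 vehicle libraries at 61.7 to 99.8 TPM.

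Libraries of a group differ from each other, and how the genes moved together between them is independent of the differences between groups. After group means were removed, 22 of 45 pairs of members were correlated over the 28 AppNLGF libraries (permutation within groups, two-sided, Pearson, adjusted p below 0.05 over the 45 pairs), 20 of them positively, and 19 of the 22 also passed by Spearman. All 22 were among the 28 pairs of the other 8 genes. Homer1 and Pcsk1 had the highest r, 0.87 (rho 0.85), with a permutation p = 1e-05, the smallest that 100000 permutations give, and an r of 0.83 without the 2 libraries farthest from the Homer1 median. Bdnf and Pcsk1 followed at 0.83 (rho 0.86, permutation p = 1e-05, adjusted 9e-05), and of the late genes Nptx2 and Vgf were at 0.76 (rho 0.62), Bdnf and Nptx2 at 0.73 (rho 0.70) and Bdnf and Vgf at 0.44 (rho 0.46, adjusted permutation p 0.0441, and 0.27 without the 2 farthest libraries). The 2 negative pairs both held Scg2, with Nrn1 at -0.42 (rho -0.43, permutation p = 0.0182, adjusted 0.0431) and with Pcsk1 at -0.38 (rho -0.45, permutation p = 0.0227, adjusted 0.0468). Without the 2 farthest libraries these r were -0.33 and -0.34. The Scg2 and Pcsk1 promoter windows are the ones printed above that hold a whole CRE.

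No pair with Arc or Npas4 passed. Between Arc and Npas4 r was 0.077 (rho 0.057, permutation p = 0.695, adjusted 0.763), and 0.28 without the 2 libraries farthest from the Arc median. With the 8 other genes r ran from -0.33 (Scg2) to 0.39 (Homer1) for Arc and from -0.33 (Vgf) to 0.02 (Bdnf) for Npas4, and 0 of 8 pairs passed for either by Pearson or Spearman, with 1 of 8 for Arc and 0 of 8 for Npas4 at an unadjusted p below 0.05. The difference in counts between these pairs and those of the other 8 genes was not tested. In the APP/TAU cohort 0 of 45 pairs passed over 15 libraries by either coefficient, with 7 at an unadjusted p below 0.05 by Pearson. There the highest r was between Arc and Bdnf, 0.72 (rho 0.76, permutation p = 0.00404, adjusted 0.0909), and Arc with Npas4 was at 0.12. With deposited TPM, in which all genes of a library shift together, 17 of the 45 APP/TAU pairs passed.

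**Figure D5:**
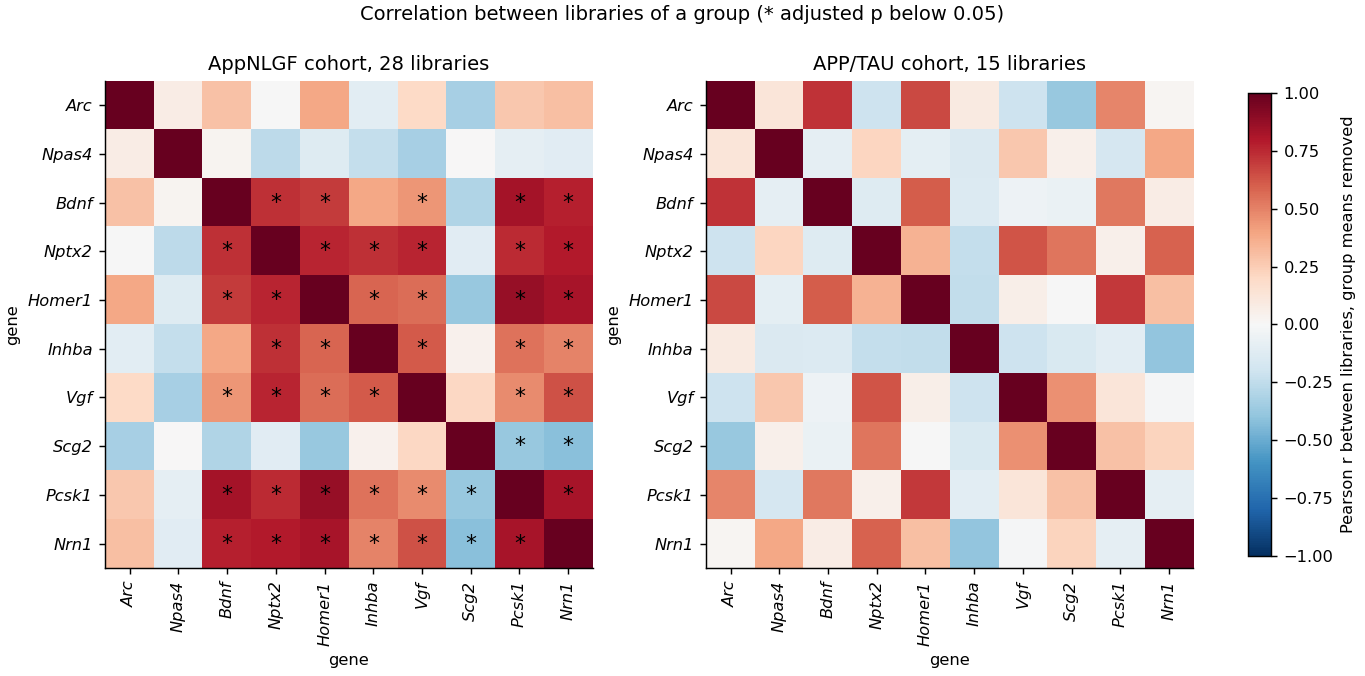
Pearson r between the 10 genes over the 28 AppNLGF libraries (left) and the 15 APP/TAU-cohort libraries (right), from median-ratio scaled log2(TPM + 1) with group means removed; asterisks mark adjusted permutation p below 0.05. In the AppNLGF cohort 22 of 45 pairs are marked, none with Arc or Npas4, and in the APP/TAU cohort 0 are marked.

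In the AppNLGF cohort the tissue content of a library moved with several of these genes. Over the 28 AppNLGF libraries, with group means removed, the mean of 8 markers of cortical excitatory neurons had an r of 0.80 with Nrn1, 0.79 with Homer1, 0.76 with Pcsk1, 0.73 with Bdnf and 0.60 with Nptx2, but of 0.42 with Arc, 0.27 with Vgf, -0.02 with Npas4 and -0.72 with Scg2. The mean of 9 tested thalamic and hypothalamic markers ran the other way, at -0.70 with Homer1 and Nrn1 and 0.68 with Scg2, with -0.17 for Arc and 0.26 for Npas4. Arc had an r of 0.44 with the hippocampal and -0.40 with the striatal markers. The share of a library taken by the most abundant RNA had an r of -0.64 with Bdnf, -0.58 with Pcsk1, -0.48 with Homer1 and -0.47 with Nrn1. It was at -0.30 with Nptx2, -0.21 with Npas4, -0.11 with Arc, -0.05 with Inhba, 0.18 with Vgf and 0.44 with Scg2. The part of this share in the correlated pairs was not tested. Over the 15 APP/TAU-cohort libraries the r with the cortical markers was 0.35 for Nrn1, 0.41 for Homer1 and -0.07 for Pcsk1. There it was 0.03 for Bdnf, 0.42 for Nptx2, 0.43 for Arc, 0.30 for Vgf, 0.41 for Npas4 and -0.40 for Scg2. The thalamic and hypothalamic markers had an r of 0.25 with Homer1, 0.36 with Nrn1 and 0.32 with Scg2 in that cohort. For Homer1 and Nrn1 this was opposite in sign to the AppNLGF cohort. Arc was at 0.10 with the hippocampal and 0.225 with the striatal markers there. The share of the most abundant RNA had an r of 0.25 with Bdnf, 0.17 with Pcsk1, 0.08 with Homer1, 0.47 with Nrn1 and 0.12 with Scg2. These r were computed after the data were seen, share the scaling of each library, and are given without a test. Between groups, the 8 cortical markers summed to 491.5 ± 75.3 TPM in AppNLGF 2P-Im, 493 ± 64.9 in AppNLGF vehicle and 495 ± 25.0 TPM in wild type libraries, while 10 thalamic and hypothalamic markers summed to 49.8 ± 39.2 TPM in 2P-Im, 67.9 ± 58.0 in vehicle and 78.8 ± 38.3 TPM in wild type libraries. Agrp was at 0 in the 4 wild type libraries.

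Sums of markers of other cells differed between the groups. Summed over 5 haemoglobin and red cell genes, blood markers were at 56.0 ± 34.3 TPM in AppNLGF 2P-Im, 61.3 ± 44.3 in AppNLGF vehicle and 145 ± 72.7 TPM in wild type libraries, and at 104.5 ± 91.9 TPM in APP/TAU 2P-Im, 224 ± 198 in APP/TAU vehicle and 42.8 ± 15.4 TPM in wild type libraries of that cohort. The 5 microglial markers summed to 137 ± 30.0 TPM in AppNLGF 2P-Im, 151 ± 17.4 in AppNLGF vehicle and 108 ± 5.36 TPM in wild type libraries, and 6 pan-neuronal markers to 1863 ± 213 TPM in 2P-Im, 1916 ± 132 in vehicle and 2031 ± 71.8 TPM in wild type libraries. The 5 astrocyte markers summed to 334 ± 69.3 TPM in AppNLGF 2P-Im, 356 ± 35.0 in AppNLGF vehicle and 250.6 ± 17.6 TPM in wild type libraries. The 7 inhibitory neuron markers summed to 522 ± 41.1 TPM in 2P-Im, 538 ± 18.7 in vehicle and 593 ± 20.1 TPM in wild type libraries, and the 5 choroid plexus markers to 376 ± 193 TPM in 2P-Im, 419 ± 183 in vehicle and 574 ± 111 TPM in wild type libraries. The 5 endothelial markers summed to 57.9 ± 8.05 TPM in 2P-Im, 53.0 ± 4.36 in vehicle and 43.9 ± 1.25 TPM in wild type libraries. The part of these differences in the folds of Arc and Npas4 was not tested. In bulk tissue, fewer cells that express a gene and less RNA of it per cell cannot be told apart.

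Genes that followed Arc between libraries included another immediate early gene, Nr4a1. Of the genes tested, the 4 non-members with the highest r to Arc over the 28 AppNLGF libraries, group means removed, were Nr4a1 (r 0.83, rho 0.81), an orphan nuclear receptor, Dusp6 (0.76), a phosphatase of ERK, Ephb3 (0.71), a receptor for ephrin-B, and Dnajb1 (0.69), a heat shock co-chaperone. Over the 15 APP/TAU-cohort libraries the r of Nr4a1 with Arc was 0.78 and that of Dusp6 0.82, while Dnajb1 was at 0.60 and Ephb3 at 0.21. The nearest genes to Npas4 were Eif5 (0.73), Setd2 (0.68), Gpr137c (0.65) and Ufl1 (0.65), and their r in the APP/TAU cohort ran from -0.24 (Gpr137c) to 0.12 (Ufl1). Those nearest to Bdnf were Prag1 (0.87), Gpd2 (0.84), Bri3bp (0.83) and B4galt6 (0.82), those nearest to Nptx2 were Ubqln4 (0.84), Lingo1 (0.83), Nudt3 (0.83) and Rab6b (0.82), and among those nearest to Vgf were Syt13 (0.87), Nudt3 (0.81) and Egln1 (0.80). Of the genes named here for Bdnf, Nptx2 and Vgf, Syt13 with Vgf had the highest r in the APP/TAU cohort, 0.55. These r are given as a description, and the genes were picked by their height among all genes tested.

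Some other immediate early genes of neurons were also lower in AppNLGF vehicle than in wild type libraries and higher in AppNLGF 2P-Im than in vehicle libraries. Of 21 such genes listed, 19 were tested, and because the list was chosen with earlier results of these comparisons known, its counts are a description. In AppNLGF vehicle against wild type 7 of the 19 passed by limma, all lower, where 0.28% of all genes passed, and the median fold was -0.62 beside -0.03 over all genes. Junb, an AP-1 subunit, averaged 18.1 TPM in vehicle and 48.6 TPM in wild type libraries (fold -1.34 ± 0.21), Fos, its partner, 6.01 TPM in vehicle and 22.0 TPM in wild type libraries (-1.71 ± 0.29), Nr4a1 21.1 TPM in vehicle and 55.4 TPM in wild type libraries (-1.33 ± 0.22), and Dusp1, a phosphatase of MAP kinases, 7.32 TPM in vehicle and 19.5 TPM in wild type libraries (-1.27 ± 0.24). With median-ratio scaling 10 of the 19 passed, all lower. In AppNLGF 2P-Im against vehicle 3 of the 19 passed, all higher, where 0.0536% of all genes passed, with a median of +0.38 beside -0.04 over all genes. These were Junb, at 37.9 TPM in 2P-Im and 18.1 TPM in vehicle libraries (+0.98 ± 0.15, 13 of 13 above every vehicle library), Nr4a1, at 44.7 TPM in 2P-Im and 21.1 TPM in vehicle libraries (+0.99 ± 0.16), and Fos, at 14.8 TPM in 2P-Im and 6.01 TPM in vehicle libraries (+1.09 ± 0.20), and with median-ratio scaling 7 passed, all higher. The comparisons share the vehicle libraries. In AppNLGF 2P-Im against wild type 0 of the 19 passed, with a median of -0.34.

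In APP/TAU mice none of these immediate early genes passed. In 2P-Im against vehicle 0 of the 19 passed and 0 of 19 had a fold above 0, with a median of -0.50 beside -0.19 over all genes, and -0.28 beside +0.002 with median-ratio scaling, with 2 of 19 above 0. Nr4a1 was at 35.7 TPM in 2P-Im and 55.3 TPM in vehicle libraries (-0.61 ± 0.13, adjusted p 0.167 by limma, 5 of 5 below every vehicle library) and Egr1, a zinc finger factor, at 49.8 TPM in 2P-Im and 77.0 TPM in vehicle libraries (-0.60 ± 0.12, adjusted p 0.167). Egr1 was picked after its values were seen, because its groups did not overlap in either scaling. In vehicle against wild type 0 of 19 passed, with a median of +0.26.

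The rest of the pathway held few such differences. Among 13 other late response genes, such as Ptgs2 and Plk2, 0 passed in any of the 6 comparisons in either scaling, with medians of -0.06 in AppNLGF 2P-Im against vehicle, -0.14 in AppNLGF vehicle against wild type and -0.18 in APP/TAU 2P-Im against vehicle. Among 22 upstream genes, the glutamate receptors, calcium channels, kinases and factors that lead to CREB and MEF2, 0 passed in the 6 comparisons, and their medians in these 3 were -0.06, -0.01 and -0.29. Among 25 receptors and partners of the effectors (24 tested in the APP/TAU table), such as Ntrk2, the receptor of Bdnf, Nptxr, the receptor of neuronal pentraxins, and Grm5, a partner of Homer1, 0 passed, with medians of -0.05, -0.06 and -0.26. The medians of all genes in these comparisons were -0.04, -0.03 and -0.19.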

How the data were processed

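The authors deposited TPM for each library; the submitters' processing notes name Salmon and the GRCm38 (mm10) build, and the Salmon version was not given in the sources used here, nor was the annotation release. Libraries were made from Sepasol-extracted RNA with the MGIEasy directional kit, per the labels' protocols. TPM keep no depth, so the depth behind a value is unknown and intervals for counting error are left out. Gene rows and, in the AppNLGF table, 64708 single-transcript rows were kept apart.

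Titles gave the groups. Genes averaging 1 TPM or more were fitted as log2(TPM + 1) with limma 3.58.1 in R 4.3.3, with 1 mean per group over the 3 groups of a table, moderation with a trend, two-sided tests and Benjamini-Hochberg adjustment over all tested genes, called below 0.05. The fit was tested on simulated data. Pair correlations used median-ratio scaled values and 100000 permutations within groups. Alternatives were other scalings, pseudocounts, filters, subsets of libraries, the replicate number as a block and leaving out each library.

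The genes, the gene lists and the tests were chosen with earlier results of these data known. Named beside the 10 members are the 4 genes most correlated with each fast or late member (1 is not reported here) and up to 4 called genes of each list per comparison; others are said to have been picked after their values were seen.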

Additional observations from a re-analysis of the deposited data

Results flagged for a closer look

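Arc had folds of opposite sign in the 2 models. In 2P-Im against vehicle it was +1.20 in AppNLGF mice, with 9 of 13 2P-Im libraries above every vehicle library, and -0.68 in APP/TAU mice, with 5 of 5 below every vehicle library. The difference between the models was not tested.

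Pcsk1 in APP/TAU vehicle replicate 2, at 15.1 TPM, lay far from the other 4 libraries of its group, which ran from 10.7 to 11.8 TPM. It was the 1 such library among 44 groups of values checked, and chance marks about 1 in 20.

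In the AppNLGF table a few isoforms have rows of their own beside the gene rows, which the comparisons did not use. Pcsk1-202, annotated as a retained intron, averaged 1.43 ± 0.635 TPM in 2P-Im libraries (SD, n = 13), which ran from 0.401 to 2.59 TPM. In vehicle libraries it averaged 0.822 ± 0.355 TPM (n = 11) and ran from 0.123 to 1.35 TPM, so the ranges overlapped. In wild type libraries it averaged 1.60 ± 0.631 TPM (n = 4).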

How the results depend on the processing

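No alternative turned a called fold round. Of the counts and gaps recomputed, 292 stayed near the main value and 17 moved. A count was taken to stay if it was equal to the main count or within a set factor of it. A gap was taken to stay if it shifted by less than the pooled SD within groups. In AppNLGF vehicle against wild type the 2 members called became 1 with a minimum mean TPM of 5, when Npas4 is no longer tested, and 1 to 2 when each library was left out. In AppNLGF 2P-Im against vehicle the 1 called became 0 with replicate numbers 1 to 5 only, 0 with numbers 6 and above only, and 0 with Xist of at least 10 TPM only (0 for the last 2 with median-ratio scaling, a combination chosen after seeing the data), while the Arc fold was +1.28, +1.11 and +0.94 in these subsets. In AppNLGF 2P-Im against wild type 0 became 2, Npas4 and Scg2, with numbers 1 to 5 only. Many of all genes also passed in that subset, so nothing is read from the 2. Neither gene passed there with median-ratio scaling. The APP/TAU pairs correlated were 17 with deposited TPM, against 0, and 0 to 2 when each library was left out; the AppNLGF pairs were 17 to 23 then. Fewer libraries enter the subsets; otherwise the cause was not tested. In the APP/TAU cohort no library reached 10 TPM of Xist, so that subset equals the full fit.

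Replicate numbers are shared between groups, but the labels give no pairing and do not say what a number stands for. Same-numbered libraries correlated at -0.08 to 0.12. A library's best match bore its own number in 3 of 4 in AppNLGF 2P-Im against wild type. It did so in 2 of 11 in 2P-Im against vehicle and 0 of 4 in vehicle against wild type. In the same order, the APP/TAU cohort had 3 of 5, 1 of 5 and 1 of 5. Whether the number marks a shared handling of libraries was not tested. A paired fit with the replicate block gave 1 member called in AppNLGF vehicle against wild type (also 1 with median-ratio scaling), with Arc at -1.42 ± 0.30, 0 in 2P-Im against vehicle (1 with median-ratio scaling), with Arc at +1.18 ± 0.20, and 4 in 2P-Im against wild type, when 3158 genes were lower against 3 without the block. Over all genes, calls without and with median-ratio scaling numbered 47 and 116, 9 and 48, and 44 and 120 in these comparisons.

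The fast minus late difference kept its sign in each alternative, except in APP/TAU 2P-Im against wild type, at -0.15 to 0.01 when each library was left out.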

Other observations

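Clock genes, of which 14 were tested, held 1 gene that passed, in 1 of the scalings. In that scaling 0.286% of all genes passed in AppNLGF 2P-Im against vehicle and 0.691% in AppNLGF vehicle against wild type. The list was written with earlier results of these data known, so its count and p-values are a description. Nr1d1, a repressor of the circadian clock, was at 47.3 TPM in AppNLGF 2P-Im, 40.5 TPM in AppNLGF vehicle and 52.2 TPM in wild type libraries with median-ratio scaling, with folds of +0.22 ± 0.05 in 2P-Im against vehicle (adjusted p 0.0235 by limma) and -0.36 ± 0.07 in vehicle against wild type (adjusted p 0.0025). With deposited TPM 0 of the 14 passed in either comparison. Per1, which answers both to light and to neuronal activity, was at 36.9 TPM in 2P-Im, 27.9 TPM in vehicle and 42.0 TPM in wild type libraries as deposited. The hours at which tissue was taken are not stated in the labels.

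Npas4-202, a retained-intron transcript of Npas4 with a row of its own, averaged 1.79 ± 0.939 TPM in AppNLGF 2P-Im (n = 13), 0.913 ± 0.660 TPM in AppNLGF vehicle (n = 11) and 2.09 ± 1.54 TPM in wild type libraries (SD, n = 4), while another Npas4 transcript, annotated for nonsense-mediated decay, averaged 1.11 ± 0.512 TPM in 2P-Im, 1.12 ± 0.876 TPM in vehicle and 2.06 ± 2.03 TPM in wild type libraries. A short protein-coding transcript of Vgf averaged 21.1 ± 4.29 TPM in 2P-Im, 20.9 ± 5.03 TPM in vehicle and 24.9 ± 5.56 TPM in wild type libraries.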
